A study of Mus musculus with 6 samples.

Results

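The Hox genes of the mouse were followed across 6 arrays of mammary gland RNA. They were taken as all non-control probes whose gene name on the array reads Hox, a cluster letter from a to d and a number, with 1 probe per gene, the one with the highest mean sample signal. The rule found 38 genes, from 49 probes, among 27962 gene names on the array. Cluster A held 11 of them, cluster B 10, cluster C 8 and cluster D 9. A RefSeq gene table lists 39 mouse Hox genes, and Hoxc11 was not analysed here.

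All mice were virgin C57/B6 animals, either wild type (WT) or DNP63 KO heterozygous (het), in which 1 copy of the gene for the ΔNp63 isoforms of the transcription factor p63 is disrupted. From each genotype 3 populations were profiled: CD24+CD29hi cells (P4), which hold most mammary stem cells (MaSC), CD24+CD29lo cells (P5), which hold luminal progenitors, and all mammary epithelial cells unsorted (MEC). There was 1 array for each of the 6 groups, so no group has a spread between animals, and the number of mice behind an array is not given in the sources used here. Every array set sample RNA in Cy5 against 1 common RNA in Cy3 (Universal Mouse Reference RNA, pooled from 11 cell lines), with no dye swap, so every level is a log2 ratio of sample over reference and levels of different genes are not comparable.

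Hox genes encode homeodomain transcription factors that lie in clusters, and their order along a cluster follows the order in which they are switched on along the body axis. Genes at the same place in different clusters are paralogs and carry the same number; low numbers act towards the head and high numbers towards the tail. The proteins bind DNA together with TALE homeodomain partners (Pbx, Meis and Pknox), their first activation responds to retinoic acid, and Polycomb and Trithorax proteins keep them off or on. In the mammary gland the group 9 paralogs Hoxa9, Hoxb9 and Hoxd9 are known to be needed together for growth of the gland in pregnancy.

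Per the file headers the probes were placed on the mouse build mm7. Cluster A probes lay at chr6:52119024-52222285 on the minus strand, cluster B at chr11:96304167-96476235, cluster C at chr15:102914520-103022308 and cluster D at chr2:74514907-74608718, the last 3 on the plus strand. No member's probe lay on the opposite strand to the rest of its cluster. The accession behind the probe led to the same symbol in RefSeq for 34 of the 38 members, and 4 accessions (those of Hoxb6, Hoxb9, Hoxd8 and Hoxd13) were not in that table.

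The members' probes, each 60 bases long, were set against each other first, because the homeobox is alike between paralogs and a probe placed in it could bind more than 1 transcript. Of 1165 pairs of probes of different members, 4 shared a run of 12 bases or more, and the other 1161 shared at most 11. The longest run, 22 bases, was shared by the probes of Hoxa9 and Hoxb3, and those of Hoxa9 and Hoxd10 shared 14. A run of 12 bases, GCAGGTCAAGAT, was found in the probes of Hoxa9, Hoxd10 (chr2:74537939-74537998) and Hoxc12 (chr15:102924544-102924603), in no other of the 41174 probes, and in 0 as its reverse complement. The probes of Hoxd10 and Hoxc12 are shown whole, with this run in capitals, because each could hold signal of a paralog.
Hoxd10: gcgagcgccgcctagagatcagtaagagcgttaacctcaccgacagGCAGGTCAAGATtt
Hoxc12: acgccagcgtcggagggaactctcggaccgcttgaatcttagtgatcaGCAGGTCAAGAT
For these genes, Hoxa9 and Hoxb3 the signal of one may hold some signal of another, and how much was not tested. Hoxa9 was well above background on all 6 arrays, Hoxb3 on 5, Hoxd10 on 4 and Hoxc12 on 0.

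The probes behind the differences described below are shown by their first 30 bases, all in lower case because no part was singled out. For Hoxb6 and Hoxb9 both probes are given, since the probes of each gene read differently.
Hoxb6, probe used (chr11:96408006-96408065): ggtgctatttgacaattcctgcctctgcca
Hoxb6, other probe (chr11:96410288-96410347): tcgagtctcatttcgtccatgtcccccgtg
Hoxb7 (chr11:96398936-96398995): gttgctagtaaggtctttgtaaaatcttgc
Hoxd8 (chr2:74550680-74550739): tgcgctttgaaagggatttctgtgttttta
Hoxb9, probe used (chr11:96385473-96385532): gcttgtgttttgtgatttctttggcagtga
Hoxb9, other probe (chr11:96384790-96384849): tcctatcctcatttgacagaatgtaacttt
Hoxc4 (chr15:103022266-103022308): ttctttccttctttagccttccttcccttt
Hoxc5 (chr15:103002694-103002753): gtgtgtgtctaagttacccagacttttcta
Hoxd4 (chr2:74572525-74572584): tcatatggcaggagctactgagaacataaa
The annotation in the files does not give an exon or UTR for a probe. The position the files give for the Hoxc4 probe covers 43 of its 60 bases, and 28 of the first 30 bases are C or T.

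Most members gave a measurable signal. In Cy5, 25 of the 38 stood well above background on all 6 arrays, 12 on some arrays and 1 on none, and 35 passed the filter of 2 arrays or more and were tested. The 3 below it were Hoxc8, a central gene of cluster C, Hoxc12 and Hoxd1. The technical error of a difference between single spots was 0.142 on the log2 scale, from 245 probes printed 10 times on every array. Of the members, 37 had 1 spot per array. Hoxb1 was printed 10 times, and its spots had an SD of 0.025 to 0.092 within an array.

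The arrays differed in the background that entered the correction. The median local background in Cy5 lay between 34.5 and 36.0 on all arrays, but its SD over spots was 48.9 on WT P4 and 21.8 on WT MEC against 2.94 to 10.5 on the other 4. The background mean fitted by the correction in Cy5 was -117 on WT P4 and -115 on WT MEC and -4.62 to -27.2 on the others. In Cy3 it was -559 on WT P4, -134 on WT MEC, -93.1 on WT P5 and -48.9 on het P4. On het MEC and het P5 it was -7.06 and -2.88. In each population it lay further below 0 on the WT array than on the het array in both channels, so it differed along genotype too. When the backgrounds that the scanner software marks as outliers were replaced by the array's median, the fitted mean was -2.11 to -6.95 in Cy5 and -0.827 to -5.93 in Cy3. Ratios of dim members on WT P4 and WT MEC lay nearer 0 with the backgrounds as given. Hoxa10, for one, read -0.89 in WT P4 as given and -2.00 after the replacement. Values are with backgrounds as given unless the replacement is named, which does not make them the better ones. The main counts are given both ways where the replacement moved them. The 4 sorted samples shared 1 slide and both MEC samples another, so population and slide cannot be told apart in any comparison with MEC. In each population the WT and het arrays also lay at different positions of a slide, and genotype and position cannot be told apart.

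The labels were set against marker genes and the targeted gene. All 10 basal markers were higher in P4 than in P5 and 10 of 12 luminal markers were lower (limma, adjusted p below 0.05). Trp63, the gene whose ΔNp63 isoforms are disrupted, read 4.41 in WT and 5.29 in het P4, 0.46 and 0.89 in P5, and 2.78 and 2.65 in MEC. Whether its probe lies in the disrupted part is not given in the sources used here, so it checks nothing about the genotype. Markers of stromal cells were higher in MEC: the summed Cy5 level of 15 fibroblast markers was 217194 to 393810 in MEC, 60024 to 60372 in P4 and 16175 to 27366 in P5, and every fibroblast marker was above background on every array.

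Relative to the cell-line reference, 9 members were above 0 on all 6 arrays and 19 were below 0 on all 6. WT MEC was the highest array for 13 members, het P4 for 9, WT P4 for 7 and het MEC for 3, and WT P5 was the lowest for 11. With outlier backgrounds replaced WT MEC was highest for 14, het P4 for 10, WT P4 for 1 and het MEC for 9. WT P5 was then lowest for 13. The widest spreads over the 6 arrays were those of Hoxc4 (2.86) and Hoxb6 (2.28) on the log2 scale. Cluster A fell mostly below the reference, with a median over its members of -0.94 in WT P5 and -0.12 in WT MEC, and cluster D stayed near it, with a median between -0.04 and 0.14 on every array.

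**Figure D1:**
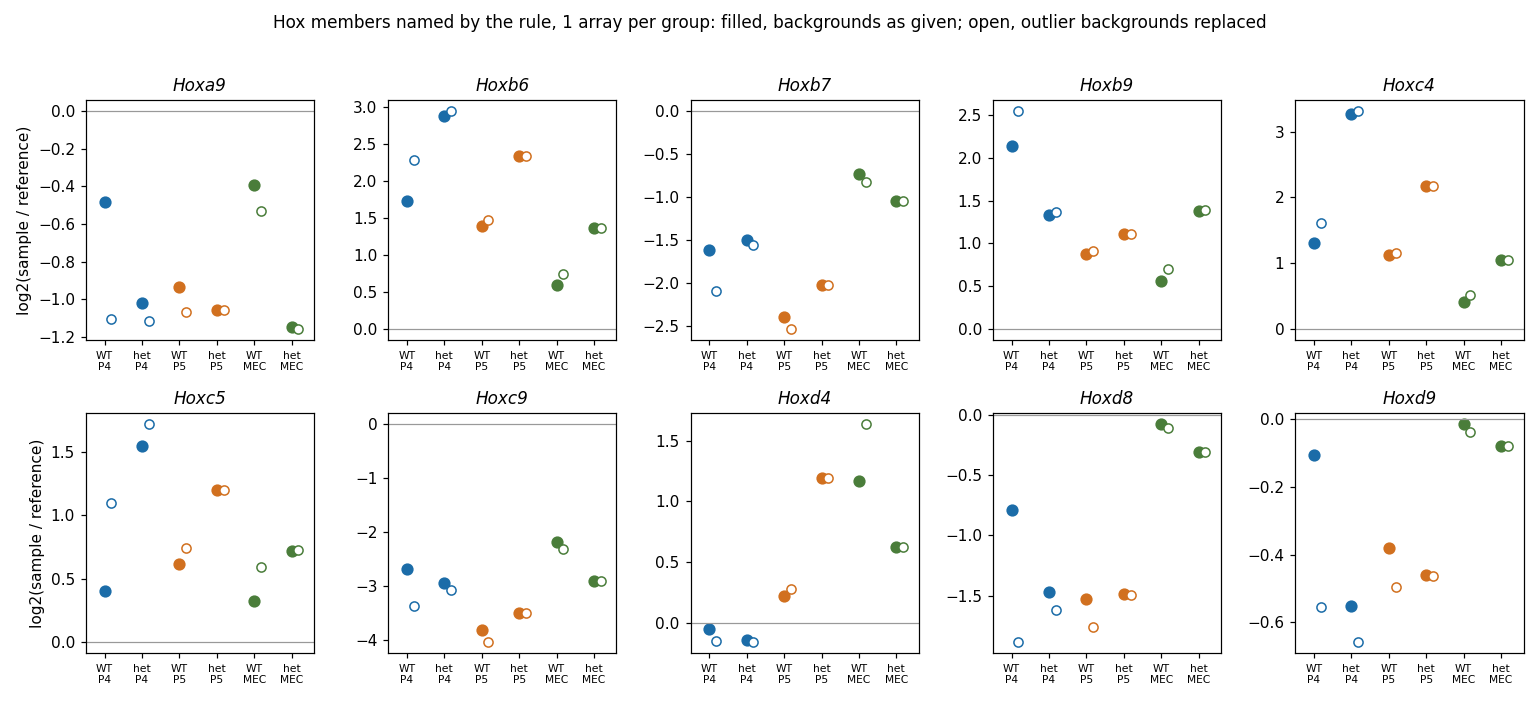
The log2 ratio of sample over reference (y axis) of 10 Hox genes on the 6 arrays (x axis, 1 array per group), with filled circles for backgrounds as given and open circles after outlier backgrounds were replaced. Hoxb6 and Hoxc4 are highest in het P4, Hoxb7, Hoxc9 and Hoxd8 are highest in WT MEC, and for Hoxa9 and Hoxd8 the open circles lie furthest from the filled ones on WT P4.

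The first comparison asked how the sorted, stem-cell-enriched P4 population differed from total MEC. Hoxb6, a central gene of cluster B, was 2.50-fold higher in P4 and was the one Hox gene of 35 to pass. Across all genes 7.05% passed (2.82% higher and 4.23% lower), so the members' share of 2.86% was not above the background. Hoxb6 read 1.73 in WT and 2.87 in het P4, against 0.59 in WT and 1.37 in het MEC. Both P4 arrays lay above both MEC arrays. The fitted difference was 1.32 ± 0.14 (SE; additive limma fit over 6 arrays, 2 residual degrees of freedom, Benjamini-Hochberg adjusted p = 0.0258), and it was 1.56 with outlier backgrounds replaced (adjusted p = 0.00708).

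The second probe of Hoxb6 did not share this difference. It lies 2222 bases further 3′ along the gene's strand and read -0.55 in WT and -0.52 in het P4, -0.74 and -0.80 in P5, and -0.36 and -0.41 in MEC. Its difference between P4 and MEC was -0.15 (adjusted p = 0.472, limma), opposite in sign to that of the probe used, and the mean of both probes gave 0.59 (adjusted p = 0.0600). The probe used carries an accession that is not in RefSeq, and the other carries the RefSeq transcript of Hoxb6, so which transcript rose is not settled by these 2 probes. With median centring in place of loess the probe used gave 0.29 (adjusted p = 0.339). Leaving out 1 of the 4 sorted arrays at a time gave an adjusted p of 0.0772 to 0.254, when no gene of the array passed.

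Of the other members, Hoxc4 and Hoxd8 came nearest in this comparison. Hoxc4, the gene at the 3′ end of cluster C, read 1.30 and 3.27 in P4 (WT, het) and 0.41 and 1.04 in MEC, a difference of 1.56 ± 0.34 (adjusted p = 0.0734). Hoxd8 read -0.79 and -1.47 in P4 and -0.08 and -0.31 in MEC, a difference of -0.94 ± 0.20 (adjusted p = 0.0704). The P4 arrays did not overlap the MEC arrays for either gene. With outlier backgrounds replaced 6 of the 35 passed, which is 17.1%, against 17.9% of all genes (9.47% higher and 8.48% lower). Hoxb6, Hoxc4 (1.68, adjusted p = 0.0232) and Hoxc5 (0.75, adjusted p = 0.0409) were then higher in P4. Hoxd8 (-1.55, adjusted p = 0.00989), Hoxa5 (-0.89, adjusted p = 0.0474) and Hoxd9 (-0.55, adjusted p = 0.0451) were then lower.

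Over all 35 tested members 16 differences between P4 and MEC were positive and 19 negative, with a median of -0.06 against 0.04 over all genes. The median over all 38 members was -0.03. The arrays of P4 and MEC did not overlap for 12 members, 2 higher and 10 lower in P4, which is 5.71% and 28.6% against 22.6% and 23.2% of all genes, or 45.8% in either direction. After the replacement 11 differences were positive and 24 negative, with a median of -0.14 against 0.05 over all genes. The arrays then did not overlap for 22 members, 5 higher and 17 lower, which is 14.3% and 48.6% against 34.5% and 27.4% of all genes.

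In P5, the luminal-progenitor-enriched population, 3 Hox genes passed against MEC: Hoxb6 was 1.85-fold higher, and Hoxb7 and Hoxd8 were at 0.401 times their MEC level. That is 8.57% of the 35, against 4.17% of all genes (1.01% higher and 3.16% lower). Hoxb7, the neighbour of Hoxb6 in cluster B, read -2.40 in WT and -2.02 in het P5, against -0.74 and -1.05 in MEC. Hoxd8, a central gene of cluster D, read -1.53 and -1.49 in P5 against -0.08 and -0.31 in MEC. For Hoxb6 the P5 values were 1.39 and 2.33 against 0.59 and 1.37, so that het MEC lay just below WT P5. No array of P5 overlapped one of MEC for these genes.

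The fitted differences between P5 and MEC were -1.32 ± 0.20 for Hoxb7 (adjusted p = 0.0456, limma), -1.32 ± 0.20 for Hoxd8 (adjusted p = 0.0479) and 0.89 ± 0.14 for Hoxb6 (adjusted p = 0.0483). All 3 lay close to the threshold of 0.05 and passed again with outlier backgrounds replaced (adjusted p = 0.0382, 0.0202 and 0.0332), when 6.4% of all genes passed. None passed without the filter on dim probes, which adds genes to the adjustment, and Hoxb6 gave -0.38 with its other probe and -0.09 with median centring. Leaving out WT P4, het P4, WT P5 or het P5 left 0 calls among the members and among all genes.

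Counting those that passed, most members of cluster A and of paralog groups 4 to 13 read lower in P5 than in MEC. Of those that did not pass, Hoxa7 gave -1.14 ± 0.23 (adjusted p = 0.0787) and Hoxc9, a group 9 paralog, -1.12 ± 0.27 (adjusted p = 0.104). Of 11 members of cluster A, 9 differences were negative and 2 positive, with a median of -0.61, and of the 14 tested members of groups 9 to 13, 11 were negative and 3 positive, with a median of -0.23. Groups 4 to 8 were alike, with 10 negative and 4 positive and a median of -0.19, and groups 1 to 3 gave 4 and 3, with a median of -0.05. Cluster B gave 4 positive and 6 negative, cluster C 2 and 4, and cluster D 2 and 6.

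Over the 35 members 10 differences between P5 and MEC were positive and 25 negative, with a median of -0.20, while 54.0% of all genes were positive with a median of 0.02. The arrays of P5 and MEC did not overlap for 21 members, 16 lower and 5 higher in P5, which is 45.7% and 14.3% against 23.8% and 24.7% of all genes, or 48.5% in either direction. Replacing outlier backgrounds gave 18 lower and 7 higher, against 26.3% and 26.7% of all genes. The count of positive differences was 7 to 13 under every alternative with 35 members. Among the 25 members above background on all 6 arrays, 10 were positive and 15 negative. Their median was -0.07, a shift of -0.11 from the median of all genes under that filter. With median centring, which moved the median of all genes to -0.34, the members' median was -0.35, so the members' shift relative to all genes was then -0.0078 against -0.22 with loess.

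Between P5 and MEC the fibroblast markers moved in the same direction as most of these members. Of the 15, 11 were lower in P5 than in MEC and 9 lower in P4, with median differences of -2.72 and -2.11. Among all genes 3.16% and 4.23% were lower. In P4 the members were split, with 16 positive and 19 negative. Of 12 immune markers 3 were lower in P5 and 1 in P4. Of 7 skeletal muscle markers 1 was lower in P5 and 1 higher in P4, and of 6 Schwann and nerve markers 0 passed. The summed level of 12 endothelial markers was 49514 to 51163 in MEC and 5049 to 9573 on the sorted arrays, and that of 8 adipocyte markers was 196075 to 200044 in MEC and 8951 to 46017 on the sorted arrays. Their part in the Hox differences was not tested. In bulk RNA, fewer cells of a type and less RNA per cell cannot be told apart.

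**Figure D2:**
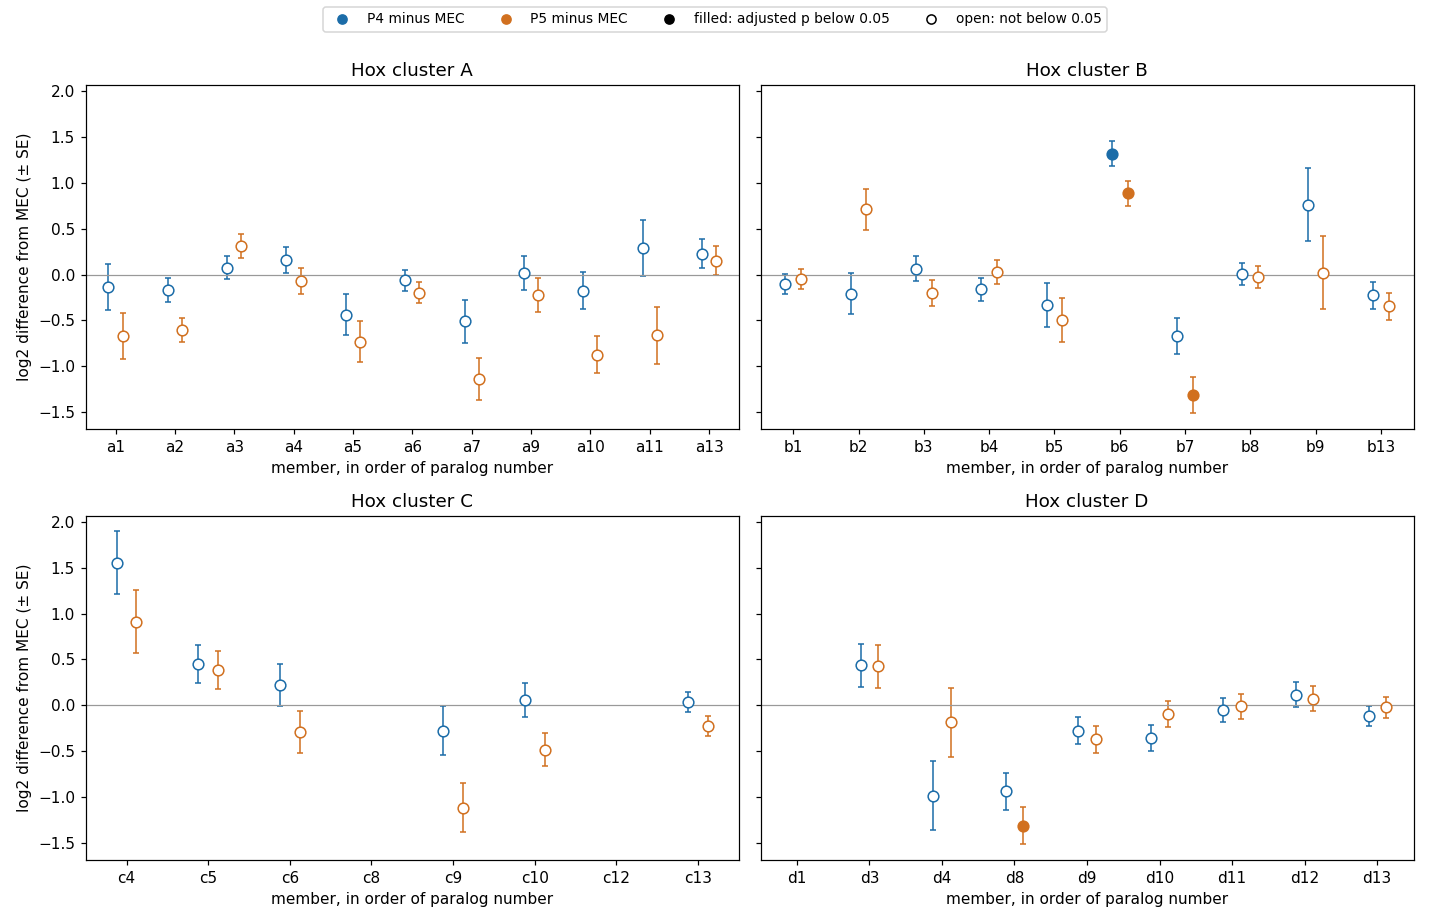
Fitted log2 differences from MEC with their SE (y axis) for each tested Hox gene in order of paralog number (x axis), by cluster, with P4 in blue and P5 in orange and filled circles where the adjusted p was below 0.05. In cluster A 9 of 11 P5 differences are below 0, and Hoxb6 lies above 0 next to Hoxb7 below 0.

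The sorted populations were then compared with each other on 1 slide. No Hox gene passed between P4 and P5, where 10.6% of all genes passed (5.05% higher and 5.57% lower in P4), and 9 of the 35 had an unadjusted p below 0.05 (limma), as 26.7% of all genes did. That count was 5 with outlier backgrounds replaced, against 30.5% of all genes. Chosen after its values were seen, Hoxb2, a gene of the anterior end of cluster B with a role in the hindbrain, had the lowest adjusted p. It read 0.33 and 0.14 in P4 (WT, het) and 1.39 and 0.93 in P5. The difference was -0.92 ± 0.22 (adjusted p = 0.0767), and both P5 arrays lay above both P4 arrays.

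Hoxb7 and Hoxc9 leaned towards P4. Hoxb7 read -1.62 and -1.50 in P4 against -2.40 and -2.02 in P5, a difference of 0.65 ± 0.20 (adjusted p = 0.121). Hoxc9 read -2.69 and -2.94 in P4 against -3.81 and -3.49 in P5, a difference of 0.84 ± 0.27 (adjusted p = 0.135). In a fit to the 4 sorted arrays alone, which leaves 1 residual degree of freedom, Hoxb2, Hoxb7 and Hoxc9 passed, as 18.8% of all genes did. With outlier backgrounds replaced Hoxb6 passed instead, 0.71 higher in P4 (adjusted p = 0.0301), when 15.1% of all genes passed.

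Over the 35 members 27 differences between P4 and P5 were positive and 8 negative, with a median of 0.23 against 0.04 for all genes, of which 57.1% were positive. This lean was not held by every processing. With outlier backgrounds replaced 19 were positive and 16 negative, with a median of 0.06, and the scanner software's own ratios gave 16 and 19, with a median of -0.05. The arrays did not overlap for 15 members, 12 higher and 3 lower in P4, which is 34.3% and 8.57% against 23.6% and 22.4% of all genes, or 46.1% in either direction. After the replacement 6 were higher and 7 lower, which is 17.1% and 20.0% against 29.3% and 23.8% of all genes.

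None of the group 9 paralogs, known for a role in this gland, passed in a population comparison in the main fit with the probe used. That fit held backgrounds as given, an offset of 50, loess and all 6 arrays. Hoxd9 passed between P4 and MEC with outlier backgrounds replaced, and Hoxc9 between P4 and P5 on the sorted arrays alone. With an offset of 0 Hoxc9 also passed as lower in P5 than in MEC (-1.54, adjusted p = 0.0275, limma). With median centring it was lower in P5 (-2.12, adjusted p = 0.0111) and in P4 (-1.35, adjusted p = 0.0295) than in MEC. Median centring also moved the median of all genes, to -0.34 between P5 and MEC and -0.22 between P4 and MEC. The share of all genes passing with an offset of 0 or median centring is not given here. Fits that leave out 1 array are not counted here. Hoxa9 read -0.48 and -1.02 in P4 (WT, het), -0.94 and -1.05 in P5, and -0.39 and -1.15 in MEC. The MEC arrays of WT and het were the highest and the lowest of the 6. Hoxd9, well above background on 5 arrays, read -0.11 and -0.55 in P4, -0.38 and -0.46 in P5, and -0.02 and -0.08 in MEC.

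Hoxb9 read 2.13 and 1.33 in P4, 0.87 and 1.11 in P5, and 0.56 and 1.38 in MEC with the probe used. Its difference between P4 and P5 was 0.74 (adjusted p = 0.350, limma). Its other probe, 623 bases further 5′, read -0.73 and -0.65 in P4, -1.50 and -1.21 in P5, and -0.74 and -0.71 in MEC. That probe gave 0.66 between P4 and P5 and passed (adjusted p = 0.0440), in the same direction as the probe used.

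**Figure D3:**
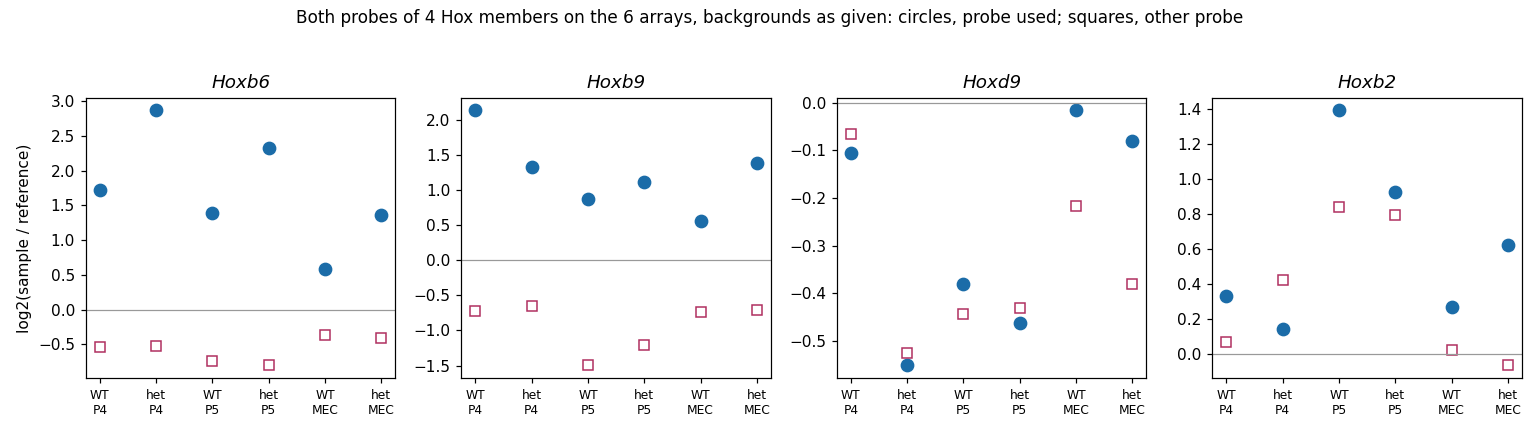
The log2 ratio (y axis) of both probes of 4 Hox genes on the 6 arrays (x axis), circles for the probe used and squares for the other. For Hoxb6 and Hoxb9 the circles lie above 0 and the squares below 0 on all 6 arrays, while both probes of Hoxb2 are highest in WT P5 and both of Hoxd9 are lowest in het P4.

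The 2 probes of Hoxb2 need care too, as the other probe lies on the opposite strand, 3202 bases away, by the files' positions. It was also highest in P5, with 0.84 in WT and 0.79 in het against 0.07 and 0.42 in P4. In all, 11 members had a second probe. That of Hoxd9, 283 bases from the probe used, read -0.07 and -0.52 in P4, -0.44 and -0.43 in P5, and -0.22 and -0.38 in MEC, so that its MEC arrays lay lower than those of the probe used.

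The genotype comparison is the one in the study's title. Over the 3 populations no Hox gene passed between het and WT, as no gene of the 25062 tested did (0% of all genes). Of the 35 members 8 had an unadjusted p below 0.05 (limma), as 20.9% of all genes did, and 4 with outlier backgrounds replaced, against 14.7%. Hoxc4 gave 1.22 ± 0.28, Hoxb6 0.95 ± 0.11 and Hoxc5 0.71 ± 0.17, each with an adjusted p of 0.206. Named after their values were seen, Hoxa4, higher in het (0.43 ± 0.12), and Hoxb3, lower in het (-0.38 ± 0.11), had the same adjusted p. Over the 35, 18 were positive and 17 negative, with a median of 0.02, against 62.1% positive and a median of 0.07 over all genes. Replacing outlier backgrounds made 24 positive and 11 negative, with a median of 0.11, against 59.0% positive and a median of 0.05 over all genes.

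Within a population the genotypes are 1 array against 1, without a replicate check. In P4, 3 of the 26 members above background on both arrays were at least 2-fold apart, which is 11.5% against 6.92% of all genes, and all 3 were higher in het, against 6.84% of all genes higher and 0.0893% lower. Hoxc4 read 1.30 in WT and 3.27 in het P4, a difference of 1.97, and its raw Cy5 signal was 1300 and 3043. Hoxc5, its neighbour in cluster C, read 0.40 and 1.55, a difference of 1.14, and Hoxb6 differed by 1.14. Their raw Cy5 signals in WT and het P4 lay closer together, at 195 and 236 for Hoxc5 and 1041 and 1169 for Hoxb6. Raw signals are not scaled between arrays, and the median raw Cy5 signal of these 2 arrays was 122 and 113. With outlier backgrounds replaced the differences were 1.70 for Hoxc4, 0.62 for Hoxc5 and 0.66 for Hoxb6, so of these 3 Hoxc4 stayed past 2-fold. Hoxb9, lower in het by -1.18, then passed as well, and 4.65% of all genes did.

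In P5, 1 of 29 members was at least 2-fold apart, against 3.32% of all genes (2.72% higher and 0.599% lower). This was Hoxc4 again, with 1.12 in WT and 2.17 in het P5. Hoxd4, a group 4 paralog of Hoxc4, read 0.23 and 1.19, a difference of 0.96, and Hoxb6 differed by 0.94. In MEC 0 of 35 reached 2-fold, against 2.78% of all genes (2.07% higher and 0.71% lower), and Hoxd4 did with outlier backgrounds replaced (-1.01). The members with the widest differences there were Hoxb9 (0.82), Hoxb6 (0.78) and Hoxa9 (-0.76), and Hoxc4 differed by 0.63.

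Hoxc4 and Hoxb6 were thus higher in het than in WT in all 3 populations, with differences of 1.97, 1.05 and 0.63 for Hoxc4 and of 1.14, 0.94 and 0.78 for Hoxb6 in P4, P5 and MEC. Both were among the members chosen for the size of these differences. Hoxc5 (1.14, 0.59 and 0.39) and Hoxa4 (0.60, 0.48 and 0.21) were among the other members higher in all 3. Of members above background on both arrays, 13 of 26 in P4, 20 of 29 in P5 and 12 of 35 in MEC were higher in het. Among all genes 66.5%, 62.1% and 56.4% were higher, and the share higher in all 3 is not given here. Median centring reduced the P4 values to 0.43 for Hoxc4 and -0.27 for Hoxb6. The other probe of Hoxb6 differed by 0.03, -0.07 and -0.05. A fit to the 4 sorted arrays alone called Hoxc4 and Hoxb6, as it did 3.33% of all genes, and the fit to all 6 called neither.

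**Figure D4:**
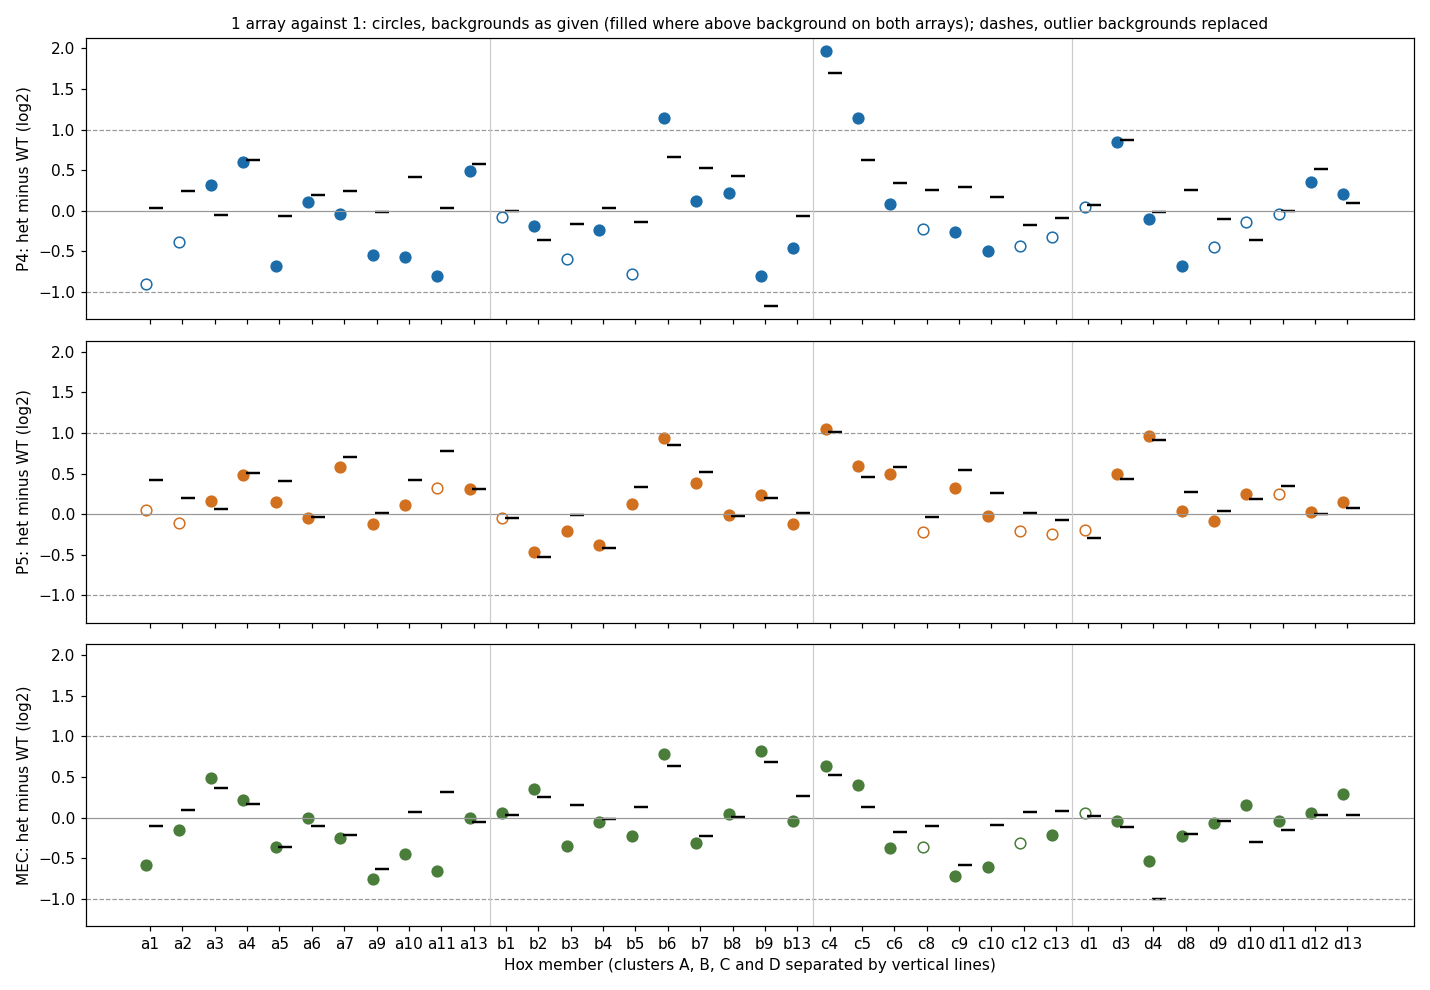
The difference in log2 ratio between the het and the WT array (y axis) for each Hox gene (x axis) in P4, P5 and MEC, with circles for backgrounds as given, filled where the gene was above background on both arrays, and dashes after outlier backgrounds were replaced. Dashed lines mark 2-fold, which Hoxc4, Hoxc5 and Hoxb6 pass in P4 and Hoxc4 in P5.

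Genes that act with or upstream of Hox genes were read from lists. Between P4 and P5, 5.05% of all genes were higher in P4 and 5.57% lower. Of the 9 TALE cofactors, 1 was higher in P4 than in P5 and 0 lower. It was Pbx3, a DNA-binding partner of Hox proteins, which read -0.28 and -0.59 in P4 (WT, het) and -1.49 and -1.52 in P5, a difference of 1.07 ± 0.14 (adjusted p = 0.0229, limma). Against MEC 0 of the 9 passed in either sorted population with backgrounds as given, where 7.05% of all genes passed in P4 and 4.17% in P5. The median of the 9 between P4 and P5 was 0.27, against 0.04 over all genes.

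Of 15 retinoid genes measured, 2 were higher and 1 lower in P4 than in P5, against 5.05% and 5.57% of all genes. Among the higher, Aldh1a1, an enzyme that makes retinoic acid, differed by 1.46 ± 0.17 (adjusted p = 0.0182, limma), with -0.57 and -0.26 in P4 (WT, het) and -1.98 and -1.75 in P5. Aldh1a3, another such enzyme and also a luminal marker, differed by -5.57 ± 0.31 (adjusted p = 0.00669), with 1.75 and 3.73 in P4 and 7.91 and 8.71 in P5. These enzymes thus differed in opposite directions. The list's median was -0.01.

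Of 23 Trithorax and Polycomb genes 2 were lower in P4 than in P5 and 0 higher, against 5.57% and 5.05% of all genes. Both were of Polycomb complexes, and the list as a set was not tested. Cbx7, which reads methylated histones, differed by -1.20 ± 0.21 (adjusted p = 0.0376) and Ring1, a ubiquitin ligase subunit, by -0.82 ± 0.12 (adjusted p = 0.0280). Of 18 tested homeobox and T-box genes of the mammary bud 1 was lower in P4, Msx2, a homeobox gene of the bud, by -3.07 ± 0.55 (adjusted p = 0.0401). Against MEC, 2 of these 18 were lower in P5, Prrx1 (-2.86 ± 0.31, adjusted p = 0.0266) and Tbx15 (-2.22 ± 0.24, adjusted p = 0.0259), both known from mesenchyme. Among all genes 3.16% were lower in that comparison. Of the 4 tested ParaHox and Cdx genes, the cousins of Hox genes outside the clusters, 0 passed in any comparison with backgrounds as given. Gsx1, a ParaHox gene named after its values were seen, was 1.23 higher in P4 than in MEC once outlier backgrounds were replaced (adjusted p = 0.0243, limma). Between P4 and P5 the replacement gave 1 TALE gene higher and 1 lower, 3 retinoid genes higher and 1 lower, and the same counts in the other lists. Among all genes 15.1% then passed. Between P4 and MEC the replacement gave 1 higher and 1 lower of the TALE genes, 3 and 2 of the retinoid genes, 0 and 1 of the Trithorax and Polycomb genes and 1 and 3 of the bud genes. Among all genes 9.47% were then higher and 8.48% lower. No gene of these lists passed between het and WT with either background.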

How the data were processed

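The 2-colour arrays were read with Agilent Feature Extraction 9.5.3.1, per the file headers. For each spot the deposited scanner output holds the raw intensity and that of its local background. A log10 ratio of sample to reference, corrected by the software for background and dye, is deposited with them. A deposited series file holds log2 ratios, whose correlation with the scanner's over probes was 0.988 to 0.999 by array and which therefore also give sample over reference. How it was normalized is not given in the sources used here, and its column medians ran from -0.04 to 0.10. Flags of the scanner software were used as deposited.

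The mean signal of a spot was corrected for its median local background by normexp (offset 50), and ratios were normalized by loess within an array, in limma 3.58.1 (R 4.3.3). Control and outlier spots had no weight in loess and were left out afterwards, and spots of a probe were averaged. Each gene name took its brightest probe, and 25062 gene names whose probe had a Cy5 flag for signal over background on 2 or more of the 6 arrays were tested. The additive fit held population and genotype. The call threshold was 0.05 for p adjusted by Benjamini-Hochberg over all of them. The number of arrays, 1 per group, limits the precision, and p-values measure only the spread left by the additive fit, which holds population-by-genotype differences too. The computation was tested on simulated data.

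Members and lists were chosen with earlier results of these data known. Values on all arrays are given for members that passed in a population comparison, the group 9 paralogs, and the 3 members with the widest genotype difference in each population. In the other lists the genes that passed between P4 and P5 are named, except for 1 gene that is not reported here. Sequences are those of the deposited probes. Other settings were 2 backgrounds or offsets, median centring, ratios of the scanner or of the deposited series file, Cy5 alone, 2 filters, the mean of a gene's probes, the sorted arrays alone and leaving out each array. The array's median background for every spot and a gene's other probe were added after seeing the data. Figures were drawn with matplotlib 3.10.9.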

Additional observations from a re-analysis of the deposited data

Results flagged for a closer look

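For 2 members the het array lay above the WT array in one population and below it in another, by at least 0.5 on the log2 scale in each. With 1 array per group the difference between populations was not tested.

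Hoxb9 was lower in het than in WT P4, by -0.80, and higher in het MEC, by 0.82. With outlier backgrounds replaced the values were -1.18 and 0.69. Its other probe, which passed between P4 and P5, differed by 0.08 in P4 and 0.03 in MEC, both below the technical error of 0.142. After the replacement that probe was higher in het by 0.33 and 0.23.

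Hoxd4 was higher in het than in WT P5, by 0.96, and lower in het MEC, by -0.54. With outlier backgrounds replaced these were 0.91 and -1.01.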

How the results depend on the processing

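No paired analysis was possible because each group holds 1 array and the groups share fewer than 2 replicate numbers. The share of all genes passing moved between settings too, for P4 and MEC from 7.05% to 17.9% with outlier backgrounds replaced. For most other settings that share is not given here, so the counts below are not read as results about Hox genes. Counts of Hox genes called moved by over 1.5 times as follows, and the cause was not tested. Between P4 and P5 (0 called) they became 1 with outlier backgrounds replaced, 1 with the array's median background, 2 with an offset of 0, 1 with the mean of a gene's probes and 3 on the sorted arrays alone. Between P4 and MEC (1 called) they became 6 and 4 with these backgrounds, 2 with an offset of 0, 5 with median centring, 10 with the scanner's or the series table's ratios, 5 with Cy5 alone and 0 with the mean of probes. Between P5 and MEC (3 called) they became 7 with an offset of 0, 7 with median centring, 6 with the scanner's or the series table's ratios and 0 without the filter. Between het and WT (0 called) they became 1, 4 and 2 with an offset of 0, median centring and the sorted arrays alone. Leaving out 1 array gave 0 to 3, 0 to 2, 0 to 4 and 0 to 2 calls in these comparisons. The 3 calls between P4 and P5 and the 2 between het and WT came without WT MEC or without het MEC, and the 0 calls against MEC without any 1 of the sorted arrays. Counts at 2-fold in P4 (3) became 8 with an offset of 0 and 9 with median centring, in P5 (1) 3 with an offset of 0 and 2 with the scanner's or the series table's ratios, and in MEC (0) 4 with an offset of 0 and 1 with replaced backgrounds, median centring or either set of ratios.

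Signs turned for these members. Between P4 and P5, Hoxd8 gave -0.13 and -0.080 with replaced and median backgrounds and -0.63 with the scanner's and the series table's ratios, Hoxa9 -0.050 with replaced backgrounds and -0.16 with both sets of ratios, and Hoxd9 -0.13 and -0.17 with the backgrounds, -0.97 with both sets of ratios and -0.11 with Cy5 alone. Between P4 and MEC, Hoxa9 (0.02) gave -0.27 and -0.24 with the backgrounds, -0.039 with an offset of 0, -0.36 with median centring, -0.51 with both sets of ratios and -0.28 with Cy5 alone. There Hoxb6 gave -0.15 with its other probe, Hoxd9 0.0026 with its other probe and Hoxb9 -0.27 with median centring. Between P5 and MEC, Hoxb6 gave -0.090 with median centring and -0.38 with its other probe, and Hoxb9 (0.02) -0.030 and -0.033 with the backgrounds, -1.005 with median centring, -0.30 with the mean of probes and -0.63 with its other probe. In P4 the genotype difference of Hoxb6 was -0.27 with median centring.

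Leaving out 1 array gave ranges across 0 for Hoxa9 of -0.021 to 0.51 (P4 and P5), -0.19 to 0.23 (P4 and MEC) and -0.49 to 0.041 (P5 and MEC), for Hoxc9 of -0.66 to 0.10 (P4 and MEC), for Hoxd9 of -0.094 to 0.28 (P4 and P5) and for Hoxb9 of -0.53 to 0.57 (P5 and MEC). Over its alternatives the adjusted p of Hoxb6 was 0.00708 to 0.472 between P4 and MEC and 0.0332 to 0.745 between P5 and MEC, and between P5 and MEC it was 0.00795 to 0.285 for Hoxb7 and 0.0107 to 0.292 for Hoxd8, which kept their direction under each. Signal over background limits 13 members that were not above background on every array.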
